A study of Mus musculus with 2 samples.

Results

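The genes described here are the protocadherins, cadherins and adherens junction genes listed in an HP1 alpha eCLIP table from NIH3T3 cells, an established line of mouse fibroblasts. Members were taken by symbol: protocadherins (Pcdh), numbered cadherins (Cdh), the giant cadherins Fat, Dchs and Celsr, catenins (Ctnn and Jup), nectins, zonula occludens proteins (Tjp) and calsyntenins (Clstn). Of 3134 listed genes, 27 were members. Among them, 15 belong to the protocadherin gamma (Pcdhg) cluster, overlap one another by RefSeq positions and have nested counts, so the cluster was counted once, which leaves 13 units. Another 8 rows carry protocadherin symbols in capitals (PCDHA4, PCDHGA9, PCDHGA12, PCDHGC5 and 4 separate IDs all named PCDHGB6). They fall outside the symbol rule and are given beside the cluster.

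In eCLIP, RNA is crosslinked to bound proteins in living cells by ultraviolet light, trimmed with RNase, pulled down with an antibody and sequenced from the part of the membrane above the protein's band. The HP1 alpha library was made from NIH3T3 cells with an antibody to HP1 alpha. The input library came from the same line, is labelled as having no antibody, and no treatment is named for either. Each group has 1 library, so no difference below has a replicate check and none was tested. The deposited columns name MEF as the cells and call the input mock. The stated aim was to find long noncoding RNAs that associate with HP1 alpha; the adhesion genes are other RNAs of the same table.

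HP1 alpha, the product of Cbx5, binds methylated histone H3 in heterochromatin and also contacts RNA. Classical cadherins such as N-cadherin hold neighbouring cells together through their outer repeats, while catenins tie their tails to actin. Clustered protocadherins are encoded by tandem alpha, beta and gamma arrays. Each gamma transcript joins 1 variable exon, with its own promoter, to constant exons at the far end of the cluster, so the gamma gene models overlap and share their last exons. The combination of isoforms gives neurons a surface identity, and protocadherin promoters and enhancers are bound by CTCF and cohesin.

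The promoters of most clustered protocadherins carry a conserved element with the core CGCT. The promoter windows of the 3 non-clustered protocadherins in the table are shown, and those of the clustered genes are not. Each CGCT, or AGCG on the other strand, is in capitals. Sequences are from RefSeq, build GRCm38.p6, and run from 250 bases before to 50 bases after an annotated start, each on the minus strand. They lie at chr14:93890630-93890929 for Pcdh9, chrX:133688944-133689243 for Pcdh19 and chr3:49757267-49757566 for Pcdh18. The Pcdh9 window lies inside the gene span, which runs to 93892834, while those of Pcdh19 and Pcdh18 contain the first base of their gene span.
Pcdh9: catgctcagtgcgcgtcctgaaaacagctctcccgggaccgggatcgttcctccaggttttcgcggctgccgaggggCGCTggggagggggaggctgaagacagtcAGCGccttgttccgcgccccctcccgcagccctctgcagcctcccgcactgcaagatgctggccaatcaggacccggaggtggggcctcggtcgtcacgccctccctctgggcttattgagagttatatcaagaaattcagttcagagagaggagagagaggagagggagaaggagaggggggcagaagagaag
Pcdh19: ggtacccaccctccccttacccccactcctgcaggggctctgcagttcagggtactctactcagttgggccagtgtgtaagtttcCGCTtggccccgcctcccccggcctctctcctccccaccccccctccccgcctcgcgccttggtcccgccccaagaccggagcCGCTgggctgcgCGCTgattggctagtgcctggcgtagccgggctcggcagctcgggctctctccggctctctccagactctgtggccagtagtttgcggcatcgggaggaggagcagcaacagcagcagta
Pcdh18: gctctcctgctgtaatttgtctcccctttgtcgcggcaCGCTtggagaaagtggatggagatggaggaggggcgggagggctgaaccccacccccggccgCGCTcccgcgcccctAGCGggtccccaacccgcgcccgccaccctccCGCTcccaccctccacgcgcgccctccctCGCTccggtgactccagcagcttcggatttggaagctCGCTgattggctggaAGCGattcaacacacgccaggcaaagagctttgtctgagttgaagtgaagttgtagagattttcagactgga
The core occurred 2 times in Pcdh9, 3 times in Pcdh19 and 7 times in Pcdh18. Of the 32851 windows of this length, 61.8% held at least 1 match on either strand. As many matches or more were held by 41.4% for Pcdh9, 28.0% for Pcdh19 and 3.56% for Pcdh18. The core contains the pair CG, which occurred 18 times in Pcdh9, 18 in Pcdh19 and 23 in Pcdh18. The median over all windows was 7 such pairs. As many pairs or more were held by 29.7% of windows for Pcdh9, 29.7% for Pcdh19 and 21.5% for Pcdh18. A match is a string of letters and not a shown binding site.

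The listed counts added up to 513965 for HP1 alpha and 830031 for input. These are totals of the table and not sequencing depths, since every listed gene has at least 100 counts in one of the libraries. Counts were scaled to the listed total of their library, and the ratio of HP1 alpha over input is given with an exact 95% interval (Clopper-Pearson) that covers counting error only. Such an interval is too narrow where PCR copied the same molecule. A gene was called higher or lower when its ratio passed 2-fold and its interval left out 1. The median ratio of all genes was 0.865. Of the fibroblast markers 6 of 10 were listed, such as Fn1 and Col1a1, with summed levels of 10658 CPM (counts scaled to a listed total of 1e6) for HP1 alpha and 13390 CPM for input. None of the 7 epithelial, 5 endothelial or 5 muscle markers was listed, and 1 of 5 neuronal markers was (Map2). The libraries are bulk, so more RNA per cell and more cells with the RNA cannot be told apart.

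The Pcdhg cluster was the 1 unit of 13 called higher, 0 units were called lower, and over all listed genes 2.36% were called higher (1.83% with the protocadherin cluster rows counted once) and 0.83% lower. The cluster lies on chromosome 18 from 37661775 to 37841873 (GRCm38.p6). Pcdhga1 (ENSMUSG00000103144.1), the member with the first start and the longest span, 180 kb, had 773 HP1 alpha counts and 515 input counts. These are 1504 and 620 CPM, a ratio of 2.42 (2.17 to 2.72). Against the median of the 200 listed genes nearest in span it was 1.95 times (1.74 to 2.19), which is under 2-fold, so the call was lost there. Of the gamma members, which overlap, 12 were past 2-fold on this measure and 3 (Pcdhga1, Pcdhga2 and Pcdhgc4) were under it, so the loss rests on which member stands for the cluster. The count was larger in the HP1 alpha library although that library has the smaller total. Of the 15 gamma members, 13 were called higher, but they overlap and amount to 1 observation. All 15 intervals lay above 1, and the ratios ran between 1.57 (Pcdhgc4) and 2.43 (Pcdhga2). Pcdhga2 had 763 HP1 alpha counts and 508 input counts. Pcdhgb8, a transcribed pseudogene in RefSeq, and Pcdhgc4, a C-type gene near the constant exons, had 1.97 (1.72 to 2.25) and 1.57 (1.28 to 1.93).

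The count of a gamma member was lower the nearer its start lay to the end of the cluster. This held at each of the 14 steps between successive starts, in both libraries. Pcdhgb8 had 492 HP1 alpha counts and 403 input counts, and Pcdhgc4 had 188 and 193. Such an order is what counting over whole spans gives when a read is assigned to every gene it overlaps. The difference between successive members that share an end is then the number of reads between their starts. The counts of the 8 rows in capitals took places in this order, and all 23 cluster rows were ordered alike in both libraries. PCDHA4 led it with 780 and 535 counts, a ratio of 2.35 (2.11 to 2.63). RefSeq has a short alpha gene and a long alpha-to-gamma model under that name, and which of them was counted is unknown. If the long model was counted, PCDHA4 held 7 HP1 alpha counts and 20 input counts beyond those of Pcdhga1. Their ratio was 0.565 (0.202 to 1.39), so the PCDHA4 ratio would then be mostly that of the gamma reads. Of the 8 rows, 5 were called higher. PCDHGC5 had the lowest counts, 135 and 179, and a ratio of 1.22 (0.967 to 1.53).

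**Figure D1:**
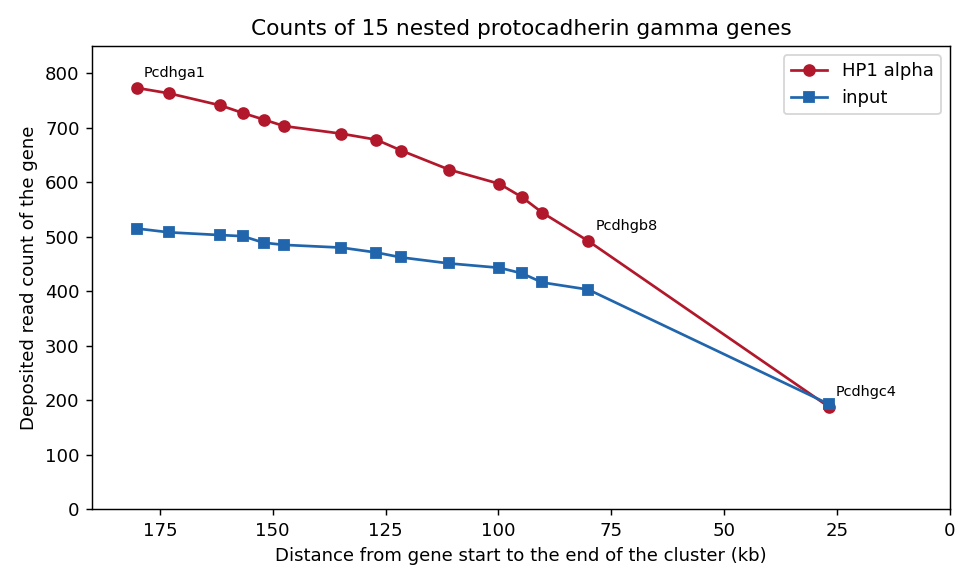
Deposited read count of each of the 15 gamma members (vertical axis) against the distance from its start to the end of the cluster in kb (horizontal axis, transcription runs left to right), with the HP1 alpha library in red and the input in blue, 1 library each. The HP1 alpha line drops from 773 at Pcdhga1 to 188 at Pcdhgc4 and meets the input line there (193). Counts are not scaled to the library totals, so lines that meet are not a ratio of 1. At Pcdhgc4 the scaled ratio was 1.57 (1.28 to 1.93).

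Split in this way at the starts of Pcdhgb8 and Pcdhgc4, the cluster had its largest HP1 alpha excess in the upstream segment. Before the start of Pcdhgb8, over 100.0 kb that hold 13 of the steps, there were 281 HP1 alpha counts and 112 input counts, a ratio of 4.05 (3.24 to 5.09). From Pcdhgb8 to Pcdhgc4, the largest step, of 53.3 kb, there were 304 and 210 counts, a ratio of 2.34 (1.95 to 2.80). From Pcdhgc4 to the end of the cluster, 26.8 kb that hold the constant exons, there were 188 and 193 counts, a ratio of 1.57 (1.28 to 1.93). The upstream ratio was 2.58 times that of the last segment (1.89 to 3.51, exact conditional interval), a comparison that does not depend on how the libraries are scaled. The middle segment lay between them, at 1.49 times the last (1.13 to 1.96). The boundaries were chosen with the counts known, and the rows in capitals, which were not placed, did not enter the split. By count, some fall inside the later segments. From Pcdhgb8 to PCDHGA12, HP1 alpha counts fell from 492 to 463 and input counts from 403 to 400. From a PCDHGB6 row to Pcdhgc4 they fell from 382 to 188 and from 370 to 193. From Pcdhgc4 to PCDHGC5 they fell from 188 to 135 and from 193 to 179. The excess was thus uneven within these segments, and no steady decline was shown. If whole spans were counted, the segments are disjoint except past the end of Pcdhgb8. In RefSeq that end is at 37840489, while Pcdhga1 and Pcdhgb7 end at 37841870. Reads in that stretch would be added to the upstream segment and taken from the middle one. The lengths are those of RefSeq, which can differ from the annotation used for counting.

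Read density was higher toward the end of the cluster in both libraries. Per kb, the upstream segment had 5.47 HP1 alpha CPM and 1.35 input CPM. The middle segment had 11.1 and 4.75 CPM per kb, and the segment with the constant exons had 13.7 and 8.68 CPM per kb. The upstream segment held 36.4% (33.0 to 39.9, exact binomial) of the cluster's HP1 alpha counts, against 21.7% (18.3 to 25.6) of its input counts. The last segment held 24.3% (21.3 to 27.5) of the HP1 alpha counts and 37.5% (33.3 to 41.8) of the input counts.

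**Figure D2:**
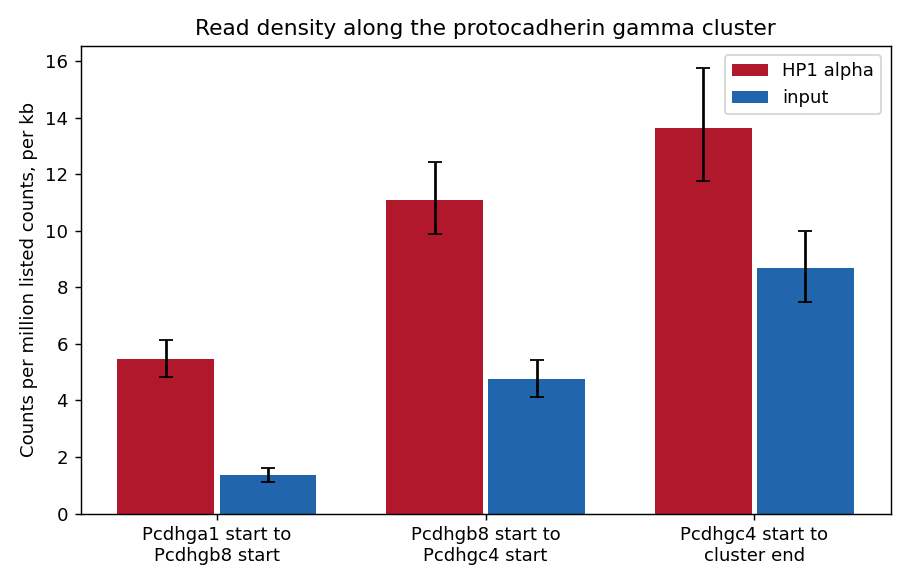
Read density in 3 consecutive segments of the gamma cluster, in CPM per kb of RefSeq sequence, with HP1 alpha in red and input in blue. Bars are 1 library each and error bars are exact 95% Poisson counting intervals. The HP1 alpha bar is above the input bar in each segment, by a factor of 4.05 upstream and 1.57 in the last segment. The last segment runs from the start of Pcdhgc4 and includes the constant exons.

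Within the upstream segment the HP1 alpha excess was spread over many steps rather than set by one. The 13 steps were between 4.52 and 12.7 kb long, with 10 to 52 HP1 alpha counts and 2 to 17 input counts. All 13 ratios were above 1, and the intervals of 10 were above 1. The step from Pcdhgb7 to Pcdhgb8 had the most HP1 alpha counts, 52 against 13, a ratio of 6.46 (3.47 to 12.9). With whole spans counted, that step would also hold reads past the end of Pcdhgb8. The highest ratio, 11.3, was that of the step from Pcdhgb1 to Pcdhga4, but it rests on 14 and 2 counts and has an interval of 2.6 to 102. The lowest, from Pcdhga4 to Pcdhgb2, had 12 counts in each library and 1.61 (0.664 to 3.93). The order of single steps cannot be resolved at these counts.

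Within 1 Mb of the gamma members, 2 other genes were listed of 30 protein-coding RefSeq genes there, and 1 of them is described. The 30 leave out clustered protocadherins and symbols that begin with Gm. Of 57 protein-coding clustered protocadherins in RefSeq, 14 were listed under the symbol rule, all of them gamma genes. Diap1 (Diaph1 in RefSeq), a formin that nucleates actin filaments, lies 1.73 kb beyond the cluster. It had 134 HP1 alpha counts and 198 input counts, a ratio of 1.09 (0.871 to 1.37). The Pcdhga1 ratio was 2.22 times that of Diap1 (1.72 to 2.86). The 58 listed genes of chromosome 18 outside the cluster had a median of 0.955. Of them, 1 was called higher and 1 lower, against 2.36% and 0.83% of all listed genes.

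The 12 members outside the cluster lay between 0.615 and 1.51, and none passed 2-fold. Their counts had medians of 236 for HP1 alpha and 439 for input. Intervals lay above 1 for 2 of them (Ctnna2 and Pcdh9), below 1 for 4 (Pcdh18, Pcdh19, Clstn1 and Fat1), and held 1 for 6. Over all listed genes 15.4% of intervals lay above 1 and 32.6% below, and the shares of the members are near these. Of genes spanning 100 kb or more, as 8 of the 13 units do, 46.2% lay above 1 and 9.35% below. With the cluster, the median log2 ratio of the 13 units was -0.087, against -0.21 for all genes. Relative to genes of like span the median of the units was -0.21. Under TMM and DESeq2 scaling, which add 0.20 and 0.21 to every log2 value, the median of the units became 0.11 and 0.12. None of the 12 overlapped another listed gene.

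**Figure D3:**
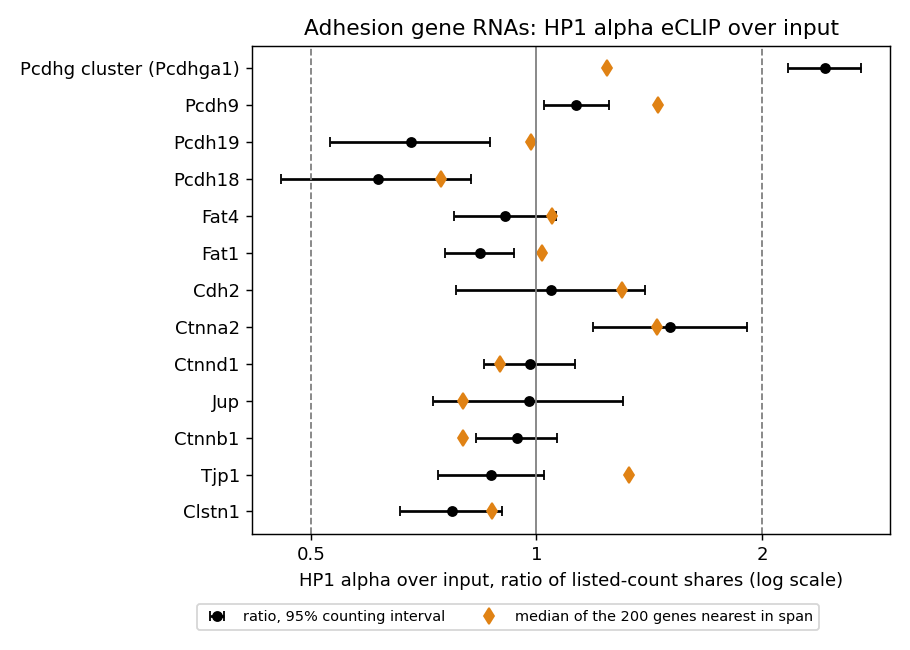
Ratio of HP1 alpha over input for the 13 units (log axis), with 95% counting intervals as bars, grouped from protocadherins at the top to the calsyntenin at the bottom. Orange diamonds give the median ratio of the 200 genes nearest in gene span, and dashed lines mark 2-fold; the Pcdhg cluster, at 2.42, is the unit past a dashed line.

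The non-clustered protocadherins, which are single genes with their own promoters and tails, lay on both sides of 1 by ratio, but all 3 were below the median of genes of like span, at 0.778 times for Pcdh9, 0.691 for Pcdh19 and 0.825 for Pcdh18. Pcdh9, a delta-1 protocadherin on chromosome 14 from 93013700 to 93892834, had 687 HP1 alpha counts and 981 input counts, a ratio of 1.13 (1.02 to 1.25). Pcdh19 and Pcdh18, delta-2 protocadherins whose tails bind the WAVE actin regulator, were on the other side of 1. Pcdh19, on chromosome X from 133582860 to 133689044, had 96 HP1 alpha counts and 228 input counts, a ratio of 0.680 (0.530 to 0.867). Pcdh18, on chromosome 3 from 49743291 to 49757383, had 67 and 176 counts and the lowest ratio of all members, 0.615 (0.457 to 0.819). Pcdh19 and Pcdh18 had under 100 HP1 alpha counts and were listed through the input count, which holds their ratios under 1.61. Before any account of span, the Pcdh9 ratio was 1.84 times that of Pcdh18 (1.36 to 2.52) and 1.66 times that of Pcdh19 (1.28 to 2.18). Pcdh19 and Pcdh18 could not be separated from each other (1.11, 0.753 to 1.63). Under DESeq2 scaling the interval of Pcdh19 held 1. With no account of span, Pcdhga1 had 2.14 times the ratio of Pcdh9 (1.84 to 2.49). Pcdh9 spans 879 kb.

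The giant cadherins had ratios just under 1, which for Fat4 turned to 1.04 with TMM and 1.05 with DESeq2 scaling. Fat1, on chromosome 8 from 44933100 to 45052257, acts on actin at cell edges and had 529 HP1 alpha counts and 1017 input counts, the largest input count of the members, and a ratio of 0.840 (0.755 to 0.934). The Fat1 interval held 1 under TMM and DESeq2 scaling. Fat4, the receptor for Dachsous in planar polarity, lies on chromosome 3 from 38884667 to 39011992 and had 251 and 446 counts and 0.909 (0.776 to 1.06). The 2 Fat genes did not differ beyond counting error, with a ratio of ratios of 1.08 (0.893 to 1.31). Of 9 RefSeq genes of the Fat, Dchs and Celsr families, these 2 were listed.

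Cdh2, which encodes N-cadherin, the classical cadherin of fibroblasts and neurons, was the 1 classical cadherin listed of 5 type I genes. It lies on chromosome 18 from 16588877 to 16809246 and had 81 HP1 alpha counts and 125 input counts, a ratio of 1.05 (0.781 to 1.40). No type II cadherin and no nectin was listed.

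Of the catenins, Ctnna2 had the highest ratio, but the lowest once set against genes of like span, at 1.04 times their median, with 1.18 for Ctnnb1, 1.10 for Ctnnd1 and 1.22 for Jup. Ctnna2, the neuronal alpha-catenin that links beta-catenin to actin, spans 1098 kb on chromosome 6 from 76881637 to 77979815. It had 142 HP1 alpha counts and 152 input counts, a ratio of 1.51 (1.19 to 1.91). Ctnnb1, which encodes beta-catenin, the cadherin partner and Wnt effector, lies on chromosome 9 from 120933400 to 120960507 and had 405 and 695 counts and 0.941 (0.831 to 1.07). Ctnnd1, the p120-catenin that stabilises cadherins at the membrane, lies on chromosome 2 from 84587096 to 84658977 and had 333 and 549 counts and 0.980 (0.852 to 1.12). Jup, or plakoglobin, which serves both adherens junctions and desmosomes, lies on chromosome 11 from 100368856 to 100397839 and had 78 and 129 counts and 0.976 (0.728 to 1.30). The Ctnna2 ratio was 1.60 times that of Ctnnb1 (1.23 to 2.10), 1.54 times that of Ctnnd1 (1.17 to 2.03) and 1.55 times that of Jup (1.06 to 2.26). The point ratios of Ctnnb1, Ctnnd1 and Jup were above 1 under TMM and DESeq2 scaling. By level per kb of span Ctnnb1 was the highest catenin and Ctnna2 the lowest, with 29.1 HP1 alpha CPM and 30.9 input CPM for Ctnnb1, against 0.252 and 0.167 CPM for Ctnna2.

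The ratios of Tjp1 and Clstn1 were below 1, except that Tjp1 came to 1.01 with DESeq2 scaling. Tjp1, the scaffold ZO-1, which joins tight junctions and adherens junctions to actin, lies on chromosome 7 from 65296165 to 65527850 and had 233 HP1 alpha counts and 432 input counts, a ratio of 0.871 (0.740 to 1.02). Clstn1, a calsyntenin that carries cargo on kinesin, lies on chromosome 4 from 149585111 to 149648899 and had 239 and 501 counts and 0.770 (0.658 to 0.901). The Clstn1 interval held 1 under TMM and DESeq2 scaling.

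Gene span, taken from the first to the last RefSeq base with introns, ordered part of these values. Across the 13 units Spearman's rank correlation between span and ratio was 0.59, and across the 3089 listed genes with a span it was 0.61; both are correlations across genes, which are not independent replicates. Of the 13 units, 8 spanned 100 kb or more, or 61.5%, against 25.3% of all genes. Of genes that long, 7.3% were called higher (6.22% with the cluster counted once) and 0.128% lower, while 46.2% had an interval above 1 and 9.35% below. Among the 8 long units, 1 was called higher and 0 lower, 3 had an interval above 1 (the cluster, Ctnna2 and Pcdh9), and 2 had one below 1 (Fat1 and Pcdh19).

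Set against the median of the 200 genes nearest in span, taken as fixed, the members separated differently. The shorter gamma members were above this median as the longest one was, at 1.97 times for Pcdhgc4 and 2.17 times for Pcdhgb8. The interval of Ctnna2 held 1. Tjp1 was at 0.655 and Fat1 at 0.826 times, and these, Pcdh9 and Pcdh19 had intervals below 1. The interval of Ctnnb1, a short gene, was above 1, and those of Pcdh18, Ctnnd1 and Jup held 1.

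**Figure D4:**
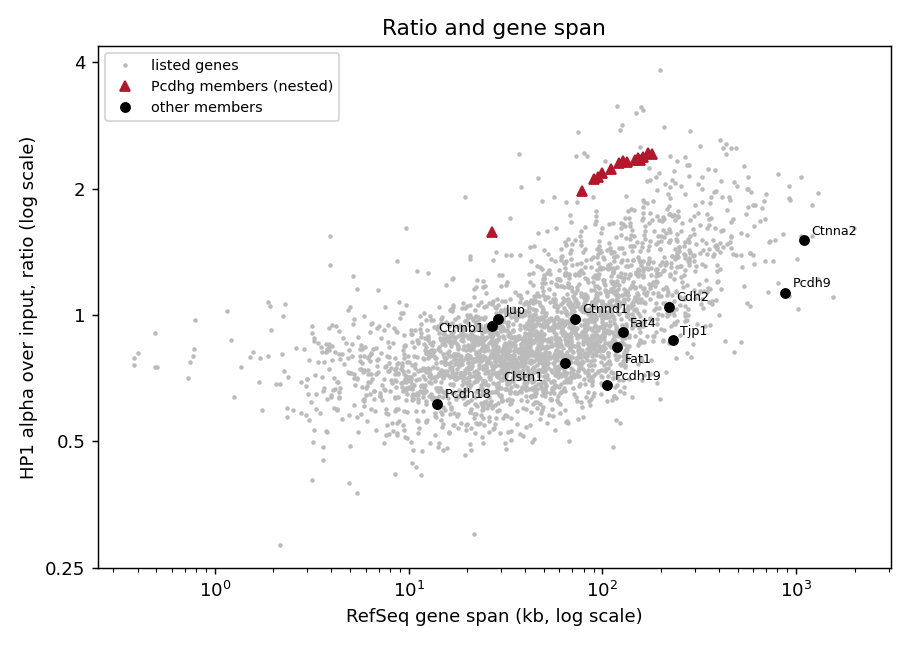
Ratio of HP1 alpha over input (log axis) against RefSeq gene span in kb (log axis) for listed genes in grey, the nested Pcdhg members as red triangles and the other members in black. The gamma members run along the upper edge of the genes of their span, while Pcdh9, Tjp1 and Pcdh19 lie toward the lower edge.

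Genes that work with these adhesion proteins were read from 5 lists. Of 35 junction plaque and actin linker genes, 16 were listed, with a median ratio of 1.12 and a median span of 126 kb. In this list 0 were called higher and 0 lower, against 2.36% and 0.83% of all listed genes. Intervals lay above 1 for 6, or 37.5%, and below 1 for 4, or 25%, against 15.4% and 32.6% of all listed genes and 46.2% and 9.35% of those of 100 kb or more. Pard3, the polarity scaffold of cell junctions, had 647 HP1 alpha counts and 600 input counts, a ratio of 1.74 (1.56 to 1.95). Magi3, a junction scaffold, had 394 and 463 counts and 1.37 (1.20 to 1.58). The actin cross-linker gene Actn4 had 374 and 717 counts and 0.842 (0.741 to 0.956), and the actin-binding gene Lima1 had 0.888 (0.770 to 1.02). Set against genes near them in span, the list's median log2 ratio was -0.031.

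Of 33 genes of Fat and Dachsous signalling to Hippo and planar polarity, 20 were listed, and 2 were called higher against a background of 2.36%. Stk3, which encodes the Hippo kinase MST2, had 612 HP1 alpha counts and 434 input counts, a ratio of 2.28 (2.01 to 2.58). Ror2, a receptor tyrosine kinase for Wnt5a in planar polarity, had 775 and 596 counts and 2.10 (1.88 to 2.34). Against the median of genes near them in span they were at 1.66 and 1.70 times. Tead1, the transcription factor partner of YAP, had 1.38 (1.25 to 1.53), and Wwtr1, which encodes TAZ, had 1.12 (0.969 to 1.29). The list's median ratio was 0.949.

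Of 22 genes of beta-catenin destruction and transcription, 11 were listed, with a median of 0.987. In this list 0 were called higher and 0 lower, against 2.36% and 0.83% of all listed genes. The Wnt transcription factor genes Tcf7l2 and Tcf7l1 had 1.72 (1.54 to 1.94) and 1.70 (1.47 to 1.97). Lrp6, a Wnt co-receptor gene, had 0.840 (0.751 to 0.939), and the kinase gene Gsk3b had 0.872 (0.757 to 1.00).

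Of 18 genes for protocadherin effectors and cadherin proteases, 8 were listed, with a median of 0.840. In this list 0 were called higher and 0 lower, against 2.36% and 0.83% of all listed genes. Nckap1, the WAVE subunit bound by delta-2 protocadherins, had 0.874 (0.731 to 1.04), and Cyfip1, another WAVE subunit, had 0.938 (0.762 to 1.15). Wasf2, which encodes a WAVE protein, had 0.864 (0.718 to 1.04). Adam10, the sheddase of N-cadherin and gamma protocadherins, had 0.845 (0.702 to 1.01).

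Of 27 genes for factors that act on protocadherin cluster genes, such as CTCF, cohesin and silencing enzymes, 19 were listed, with a median of 0.866. In this list 0 were called higher and 0 lower, against 2.36% and 0.83% of all listed genes. Intervals lay above 1 for 2 and below 1 for 7, or 36.8%, near the 32.6% of all listed genes. Cbx5, the gene of HP1 alpha, had 429 HP1 alpha counts and 780 input counts, a ratio of 0.888 (0.788 to 1.00). The methyltransferase gene Ehmt1 had 1.40 (1.19 to 1.65) and the 5-methylcytosine dioxygenase gene Tet3 had 1.40 (1.20 to 1.62). Stag1, a cohesin subunit gene, had 0.946 (0.806 to 1.11).

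**Figure D5:**
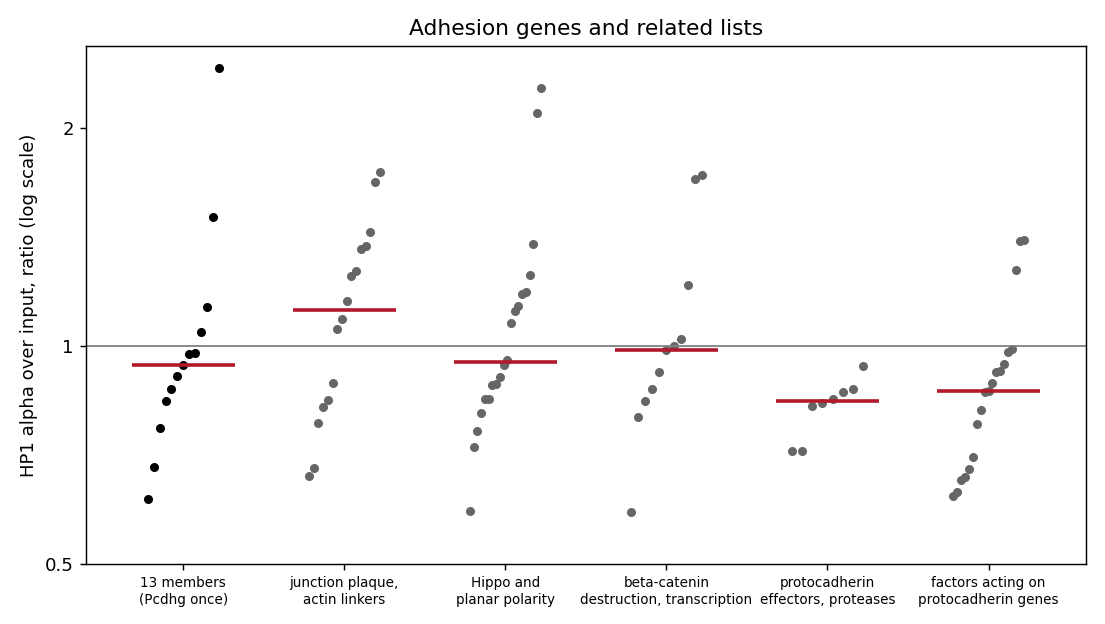
Ratio of HP1 alpha over input (log axis) for the 13 units and for the listed genes of 5 related lists, 1 point per gene in order of ratio within its column, with red lines at the medians. The medians lie between 0.840 and 1.12, and 2 genes of the Hippo and planar polarity column are past 2-fold.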

How the data were processed

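RNA recovered with an HP1 alpha antibody and input RNA were measured in NIH3T3 cells, 1 library each. The authors deposited 1 table of read counts per gene with a ratio column. Per the submitters' processing notes, STAR 2.6.0c, featureCounts and GRCm38 were used; how strand, feature type, overlaps and duplicates were handled was not given in the sources used here. The deposited ratio equals HP1 alpha counts over input counts times a constant, 1.66, which the header ties to total mapped reads. There were 0 other sample columns.

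Counts were divided by the listed totals (513965 and 830031). Log2 ratios used a pseudocount of 0.5 counts, and calls needed 2-fold and a 95% Clopper-Pearson interval without 1 (scipy 1.17.1). No test was possible with 1 library per group. Spans came from RefSeq (GRCm38.p6): 2969 genes matched by symbol and 120 by a synonym, and rows in capitals were not placed. Alternatives were TMM (edgeR 4.0.16), DESeq2 1.42.0 size factors, other filters and genes of like span. Members and lists were chosen with earlier results of these data known. All members outside the cluster are named, with the first, last, highest and lowest gamma genes, listed neighbours within 1 Mb (1 of the 2 is not reported here), and the called and 4 most abundant genes of each list.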

Additional observations from a re-analysis of the deposited data

How the results depend on the processing

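No paired analysis was possible because a single library stands on either side. The number of units called higher, 1 as reported, was 0 relative to genes of like span, 0 with the cluster read from Pcdhgc4, 13 with every listed gene counted on its own, 2 at 1.5-fold and 3 for any interval above 1. The number called lower, 0 as reported, was 1 at 1.5-fold and 4 for any interval below 1. The median log2 ratio of -0.087 became 0.98 with every gene counted on its own. The Pcdhg ratio of 2.42 was 2.78 with TMM and 2.80 with DESeq2 factors, and 1.57 from Pcdhgc4. It was 1.95 when set against genes of like span. Chosen after seeing the data, it was 1.96 with cluster members left out of those genes, 4.05 from reads before Pcdhgb8 and 2.93 from reads before Pcdhgc4; matching symbols without regard to case, also added then, left the calls at 1 and 0. The PCDHA4 ratio of 2.35 was 2.70 with TMM and 2.72 with DESeq2 factors; as the 1 alpha row with no position, it has no like-span value. Of 60 values of single members under other scalings or relative to genes of like span, 48 stayed within their counting interval and 0 passed 2-fold. A scaling multiplies every ratio by the same constant, so these values are not separate checks. Of the members, Pcdh18, Pcdh19, Cdh2 and Jup had under 100 HP1 alpha counts. These 4 were listed through the input count, which holds their ratio under 1.61.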
